A study of Mus musculus with 147 samples.

Results

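The laminin, nidogen, perlecan and agrin genes that build the basement membrane were followed across single YFP-positive cells of the mouse kidney cortex. The set holds 10 of the 35438 genes in the count tables and was taken by symbol: *Lama2*, *Lama4*, *Lama5*, *Lamb1*, *Lamb2*, *Lamc1*, *Nid1*, *Nid2*, *Hspg2* and *Agrn*. The rule uses symbols and no measured value.

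Basement membranes are sheets of matrix that wrap vascular smooth muscle, renin and mesangial cells. A laminin is a trimer of 1 alpha, 1 beta and 1 gamma chain that polymerises at the cell surface, where integrins and dystroglycan bind it. Nidogens tie the gamma 1 chain of laminin to the collagen IV network, and the heparan sulfate proteoglycans perlecan (*Hspg2*) and agrin (*Agrn*) link the network to laminin and growth factors. The alpha 5 and beta 2 chains are known from mature vascular and glomerular basement membranes, alpha 4 from vessels, and alpha 2 from muscle.

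WT renin cells came from adult Ren1c+/+ Ren1c-YFP mice (51 wells, 4 mice, 1 capture) and Renin-null cells from adult Ren1c-/- Ren1c-YFP mice (96 wells, 12 mice, 4 captures), on a strain labelled C57BL/6. The sort used YFP from a transgene that the 5′ regulatory region of *Ren1c* controls in both genotypes. It thus keeps cells with that promoter active and does not ask for renin itself. Both sexes were used, and mice with a *Ren1c* null allele had been given saline after birth. Each sorted cell was held in a well of a microfluidic chip (Fluidigm C1) and its RNA was amplified with SMART-Seq v4, which has no molecular identifiers. The Renin-null wells were sequenced in 2 libraries of 48 wells, YFP1 and YFP2, and the labels name no library for the WT wells, which were handled as 1. No label gives the mouse or capture of a well, so each genotype was 1 sample, no test was made, and the genotypes cannot be told apart from the captures they came in. Intervals are at 95%. Those of levels, ratios and shares of counts cover counting error only. Those of shares of wells take the wells as independent, although wells share mice and captures, and compare no genotypes.

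The labels were checked first. *Ren1*, the renin gene, stood at 96023 counts per 1000000 counts (CPM) in the summed WT wells and at 0.135 CPM in the Renin-null wells, while *Akr1b7*, an aldo-keto reductase of renin cells, stood at 4528 and 2011 CPM. Markers of smooth muscle (*Acta2*, *Tagln* and others) summed to 10851 CPM in WT against 12039 CPM in Renin-null, and mural markers, led by *Rgs5*, to 12404 and 14807 CPM. The summed markers of the other cell types were higher in Renin-null than in WT. Podocyte markers summed to 96.3 and 746 CPM (most abundant *Synpo* in WT and *Cdkn1c* in Renin-null), proximal tubule markers to 28.6 and 412 CPM (*Slc34a1*, *Miox*), fibroblast markers to 174 and 1168 CPM (*Col1a2*, *Col3a1*, with *Dpt* at 0 in both) and endothelial markers to 38.9 and 267 CPM (*Emcn*), with *Cdh5*, *Tek*, *Egfl7* and *Plvap* at 0 in WT. Loop and distal tubule markers summed to 0.126 and 104.03 CPM (*Slc12a1*), collecting duct markers to 19.5 and 47.0 CPM (*Scnn1g*, *Aqp2*), leukocyte markers to 1.48 and 10.5 CPM (*Ptprc*, *Cd74*) and mesangial markers to 1729 and 2785 CPM (*Serpine2*), the last reaching 1000 CPM in 15 of 51 WT and 37 of 96 Renin-null wells. The part of these cells in each result was not tested, and *Nid1* is also given below for wells gated on markers, which had at least 1000 CPM of the smooth muscle and mural lists and under 1000 CPM of each endothelial, tubule, collecting duct, podocyte and leukocyte list. Fibroblast, mesangial and renin cell markers were not limited in them.

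The wells differed in depth and quality. Totals per well ran from 26401 to 17124854 counts (median 1525972) in WT and from 3628 to 14505243 (median 4107950) in Renin-null. The median share of mitochondrial transcripts was 60.4% in WT and 12.4% in Renin-null. A filter of at least 100000 counts, 1000 genes and at most 25% mitochondrial counts passed 15 of 51 WT wells, which hold 75.7% of the WT counts, and 57 of 96 Renin-null wells with 89.03% of the counts. A handful of wells were near copies of one another. The Renin-null pairs 45 and 93, 46 and 94, 47 and 95, and 48 and 96 correlated at 0.974 to 0.987 over genes, and wells 41 and 42 at 0.896. Among the WT wells, genes with most of their counts in 1 well were also counted more often in wells with which that well has an index in common. For *Lama2*, *Lama4*, *Lamb1*, *Nid1*, *Lama3* and *Lamb3* together, a count was present in 64.9% of such wells against 17.9% of wells that share none. In YFP1 the same shares, over *Lama3*, were 7.14% and 21.2%, and in YFP2, over *Lamb3*, 15.4% and 28.1%. The highest count in a WT well sharing an index was 2154, of *Lama2* in well 10, and whether any count was carried over was not tested. A level of 10 CPM was used below to call a gene present in a well. The totals behind CPM include mitochondrial counts, which took up more of the median WT well. Shares of wells are given for named genes only, with no such share over all genes beside them.

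*Nid1* and *Lamb2* carried most of what follows, the first for the largest excess in Renin-null and the second as the most abundant chain per length, and the 250 bases before their RefSeq starts (GRCm38.p6, plus strand of each gene, 5′ to 3′) are printed for reference. *Nid1* lies on chr13:13437551-13512269 and *Lamb2* on chr9:108479736-108490530, both on the plus strand. Capitals mark matches on either strand to GGGCGG (GC box), to the CCAAT box, to the TATA box sequence TATAAA or to the full cyclic AMP response element TGACGTCA, which do not overlap one another here. GGGCGG occurs in 32.7% of the 32851 promoters of that table over the same 250 bases, CCAAT in 33.8%, TATAAA in 12.4% and TGACGTCA in 1.55%. The table held 7 of the 10 genes.
Nid1 (chr13:13437352-13437601): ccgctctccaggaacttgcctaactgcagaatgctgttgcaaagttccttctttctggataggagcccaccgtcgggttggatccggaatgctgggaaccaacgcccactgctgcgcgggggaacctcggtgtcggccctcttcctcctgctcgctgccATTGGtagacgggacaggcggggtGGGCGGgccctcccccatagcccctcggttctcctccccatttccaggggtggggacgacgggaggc
Lamb2 (chr9:108479612-108479861): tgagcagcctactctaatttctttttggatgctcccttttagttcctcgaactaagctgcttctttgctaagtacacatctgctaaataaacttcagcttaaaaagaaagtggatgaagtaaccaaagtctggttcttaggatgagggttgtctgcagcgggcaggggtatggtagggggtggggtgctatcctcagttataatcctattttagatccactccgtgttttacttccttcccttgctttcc
The *Nid1* window held 1 GC box and 1 inverted CCAAT and was 64.4% G or C, against a median of 52.4% over all promoters. The *Lamb2* window held none of the 4 motifs and was 43.6% G or C. A match describes these letters and is not a binding site.

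Over the 10 genes there was no common shift between the genotypes. *Nid1* and *Hspg2* were at least 2-fold higher in Renin-null, *Lama2* and *Lamb1* at least 2-fold lower, 5 lay between and *Nid2* was at 0 in every well. The median log2 ratio (Renin-null over WT, summed CPM) of the 9 genes with a ratio was -0.05. The table as a whole was shifted upward in Renin-null: over 18720 genes the median was 1.17, 52.4% of genes were at least 2-fold higher and 18.5% at least 2-fold lower, and among 8747 genes of at least 10 CPM in either genotype those shares were 47.8% and 20.7%. Against that shift, 7 of the 9 lay below the median gene, but 2 of 9 did when the mean log2(CPM + 1) over wells was compared, and 5 of 9 without the top wells or with SCTransform. Whether both tables came from 1 run of the authors' gene-level scaling is not stated, which bears on every ratio between genotypes.

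**Figure D1:**
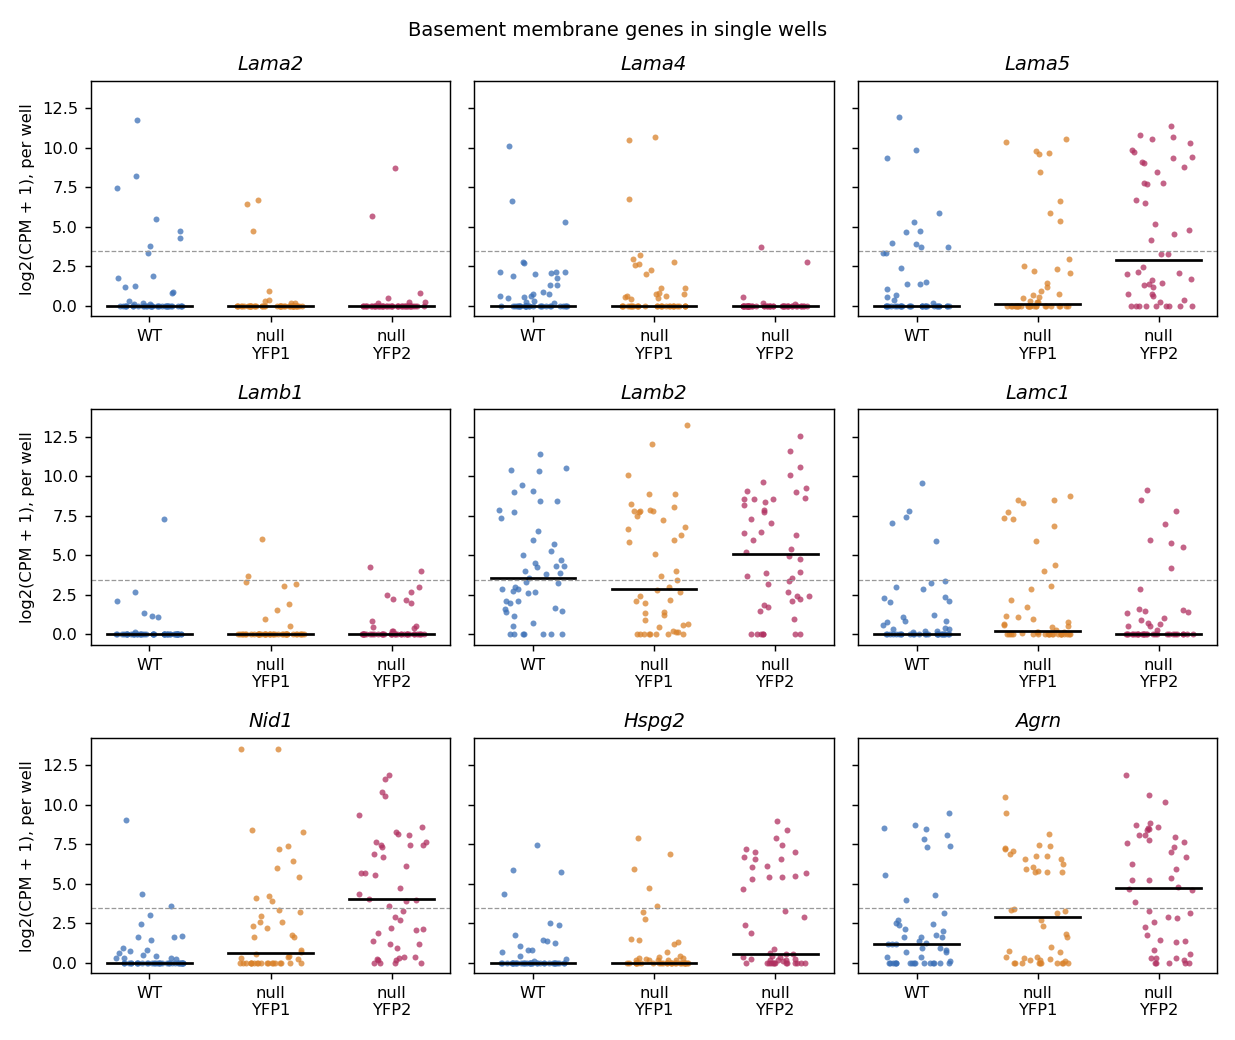
Level of each gene in each well as log2(CPM + 1), for 51 WT wells and the 48 wells of each Renin-null library. Black bars are medians and the dashed line is 10 CPM. *Lamb2* was above the line in about as large a share of WT as of Renin-null wells (51.0% and 54.2%), *Nid1* was above the line mostly in YFP2, and *Lama2*, *Lama4* and *Lamb1* were high in a few wells only.

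Among the alpha chains, *Lama5* was the one with the most counts per length in both genotypes, and its summed level was nearly equal between them. *Lama5* encodes the alpha 5 chain (chr2:180176373-180225859, minus strand). It was at 230 CPM in WT (interval 228 to 232) and 223 CPM in Renin-null (222 to 224), a log2 ratio of -0.05 (-0.06 to -0.03). Single WT wells ran from 0 to 4003 CPM with a median of 0, and Renin-null wells from 0 to 2687 CPM with a median of 1.40, so the genotypes overlapped. More Renin-null wells held it at 10 CPM, 31 of 96 (32.3%) against 11 of 51 (21.6%), but among wells that passed the filter the shares were 22 of 57 and 7 of 15. WT well 50 alone carried 57.02% of the WT counts, whereas the top Renin-null well carried 16.5%. Without the top well of each genotype the ratio was 0.89, so the near equality rests on WT well 50. YFP1 stood at 158 CPM and YFP2 at 277 CPM, on either side of WT.

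*Lama2*, which encodes the alpha 2 chain of muscle laminin (chr10:26980036-27619758, minus strand), was at 215 CPM in WT (213 to 217) and 2.33 CPM in Renin-null (2.19 to 2.49), a log2 ratio of -6.52 (-6.62 to -6.43). Most of the WT level came from 1 well. WT well 5 held 39478 of 42518 counts, or 92.9% (92.6% to 93.1%), at 3500 CPM. The next wells by level, 15 and 10, stood at 303 and 176 CPM, and the median WT well was at 0. Well 5 carried 15113 CPM of smooth muscle markers and 27056 CPM of mural markers. Without the top well of each genotype 16.3 CPM remained in WT and 0.665 CPM in Renin-null, a log2 ratio of -4.61. In Renin-null 5 of 96 wells reached 10 CPM, against 7 of 51 in WT, where 5 of the 6 wells beside well 5 have an index in common with it. Well 39 held 71.97% of the Renin-null counts, and smooth muscle markers were at 73.1 CPM there.

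*Lama4* encodes the alpha 4 chain (chr10:38965515-39110188, plus strand) and differed between the Renin-null libraries more than between the genotypes. It was at 73.8 CPM in WT (72.6 to 74.99) and 87.1 CPM in Renin-null (86.1 to 87.98), a log2 ratio of 0.24 (0.21 to 0.27). By library, YFP1 stood at 191 CPM and YFP2 at 0.483 CPM. WT well 3 held 91.3% of the WT counts at 1105 CPM. Renin-null wells 1 (60.7% of the counts, 1453 CPM) and 26 (1641 CPM) are both in YFP1. Only 3 of 51 WT wells and 4 of 96 Renin-null wells reached 10 CPM, and the median well of each genotype was at 0. The wells with the most counts, WT 3 and Renin-null 1, had smooth muscle markers at 19576 and 18158 CPM.

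As a share of the summed CPM per kb of exon, *Lama5* made up 43.5% of the alpha chains in WT and 68.4% in Renin-null, *Lama2* 28.2% and 0.499%, *Lama4* 13.1% and 25.2%, and *Lama3*, the alpha chain of epithelial laminin, 15.2% and 5.84%. *Lama1* was below 0.1% in both. *Lama3* came almost wholly from WT well 28 (99.7%) and Renin-null well 7 (99.2%). Without the top well of each gene *Lama5* was at 84.98% in WT and 84.8% in Renin-null, while *Lama2* was at 9.42% and 0.207% and *Lama4* at 5.35% and 14.9%. Counting wells instead, *Lama5* led in 11 of the 19 WT wells and 31 of the 42 Renin-null wells with at least 10 CPM of alpha chains. Between libraries, *Lama4* made up 47.0% of the alpha chains in YFP1 and 0.164% in YFP2, where *Lama5* made up 99.6%.

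**Figure D2:**
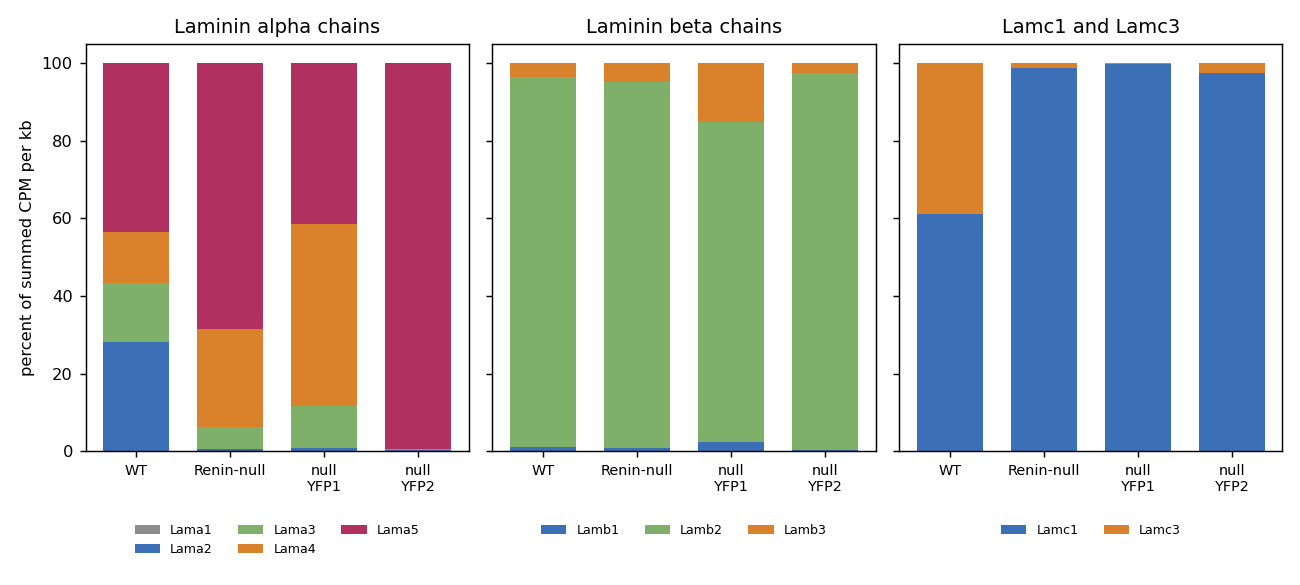
Share of each laminin chain gene in the summed CPM per kb of the genes drawn in its panel, in percent, for WT, Renin-null and the Renin-null libraries YFP1 and YFP2. The beta family was nearly all *Lamb2* (95.6% in WT, 94.5% in Renin-null), the alpha family differed most between YFP1 and YFP2, and *Lamc3* was 38.9% of the third panel in WT against 1.16% in Renin-null.

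*Lamb2* reached 10 CPM in more wells than any other member, counted over all wells. It encodes the beta 2 chain, and stood at 514 CPM in WT (511 to 517) and 286 CPM in Renin-null (285 to 288), a log2 ratio of -0.84 (-0.85 to -0.83). WT wells ran from 0 to 2757 CPM with a median of 10.9, and Renin-null wells from 0 to 9608 with a median of 14.1. At 10 CPM it was present in 26 of 51 WT wells (51.0%, interval 36.6% to 65.2%) and 52 of 96 Renin-null wells (54.2%, 43.7% to 64.4%). Its top wells, WT 44 and Renin-null 57, held 23.7% and 26.5% of the counts. The direction of shares and medians depended on the wells used, and that of the level on the summary. Over the wells that passed the filter it was present in 13 of 15 WT and 32 of 57 Renin-null wells, with medians of 349 and 14.9 CPM. Sums stayed lower in Renin-null with the cell filter (log2 ratio -1.28) and without the top wells (-0.94). The mean over all wells of CPM, however, was 204 in WT and 376 in Renin-null. YFP1 stood at 103.4 CPM and YFP2 at 439 CPM. Per length it was the most abundant member in both genotypes, at 84.5 CPM per kb in WT and 47.1 in Renin-null, and it made up 95.6% and 94.5% of the beta chains.

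*Lamb1*, which encodes the beta 1 chain (chr12:31265234-31329644, plus strand), was nearly absent. It stood at 9.16 CPM in WT against 3.41 CPM in Renin-null, a log2 ratio of -1.42 (-1.53 to -1.32). WT well 28, the *Lama3* well, held 1799 of 1812 counts (99.3%), and without the top wells 0.0698 CPM remained in WT and 1.79 CPM in Renin-null, so the ratio turned to 4.68. The Renin-null well with the most counts, 19, had 4934 CPM of proximal tubule markers and 26.5 CPM of smooth muscle markers. Only 1 WT and 4 Renin-null wells reached 10 CPM. *Lamb3*, an epithelial beta chain, stood at 19.8 CPM in WT against 16.0 CPM in Renin-null.

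*Lamc1* encodes the gamma 1 chain shared by most laminins (chr1:153218922-153332786, minus strand) and was at 75.9 CPM in WT (74.7 to 77.2) and 43.1 CPM in Renin-null (42.5 to 43.7), a log2 ratio of -0.82 (-0.85 to -0.79). WT wells ran from 0 to 749 CPM and Renin-null wells from 0 to 568 CPM, with medians of 0 and 0.0827. It reached 10 CPM in 5 of 51 and 19 of 96 wells, and in 5 of 15 and 13 of 57 of the wells that passed the filter. WT well 6 held 55.9% of the WT counts, and without the top wells the levels were 35.5 and 36.3 CPM. Of the sum of *Lamc1* and *Lamc3* per kb of exon, *Lamc1* made up 61.1% in WT and 98.8% in Renin-null. *Lamc3*, which encodes the gamma 3 chain, had 35.6 CPM in WT against 0.374 CPM in Renin-null, a log2 ratio of -6.57 (-6.82 to -6.34). *Lamc3* reached 10 CPM in 6 WT wells, but wells 3 and 5, the top *Lama4* and *Lama2* wells, held 88.9% of its counts, and it reached 10 CPM in 1 Renin-null well.

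A laminin needs 1 chain of each kind, and few wells held all of them. At 10 CPM each, an alpha chain, a beta chain and *Lamc1* or *Lamc3* were present together in 3 of 51 WT wells (5.88%, 1.23% to 16.2%) and 9 of 96 Renin-null wells (9.38%, 4.38% to 17.1%), and in 3 of 15 and 7 of 57 wells that passed the filter. A beta chain without an alpha chain, *Lamc1* or *Lamc3* was found in 11 WT and 23 Renin-null wells. *Lama5*, *Lamb2* and *Lamc1* together were present in 1 WT and 7 Renin-null wells. With the near-identical pairs 45 and 93 to 48 and 96 counted once, the Renin-null wells with all 3 kinds of chain numbered 7 and those with *Lama5*, *Lamb2* and *Lamc1* 5, of 92. A level below 10 CPM in a well is not absence, so these are counts of wells in which the chains were found together.

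*Nid1*, which encodes nidogen 1, had the largest excess in Renin-null of the 9 genes. It was at 25.1 CPM in WT (24.5 to 25.9) and 273 CPM in Renin-null (271 to 274), a log2 ratio of 3.44 (3.40 to 3.48), which is 2.27 above the median of all genes. WT wells ran from 0 to 534 CPM with a median of 0, and Renin-null wells from 0 to 12036 CPM with a median of 3.83. It reached 10 CPM in 3 of 51 WT wells (5.88%) and 39 of 96 Renin-null wells (40.6%). Of the wells that passed the filter, 3 of 15 WT (20.0%) and 21 of 57 Renin-null wells (36.8%) reached that level. Thinning, given next, evens the totals of wells but not their mitochondrial share. With every well thinned to 50000 counts, at least 1 count was present in 4 of 49 WT wells (8.16%, 2.27% to 19.6%) and 33 of 84 Renin-null wells (39.3%, 28.8% to 50.5%), against 19 and 69 of the same wells before thinning. WT well 18 held 89.97% of the WT counts, while the top Renin-null well, 81, held 32.7%. Well 81 carried 23185 CPM of smooth muscle markers and 33986 CPM of mural markers. The next well by counts, 73, had 1295 CPM of endothelial and 3889 CPM of fibroblast markers beside 10560 CPM of mural markers. Of the Renin-null *Nid1* counts, 28.4% lay in wells with at least 1000 CPM of endothelial markers, which hold 6.90% of all Renin-null counts.

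The *Nid1* difference was uneven between the Renin-null libraries. YFP2 stood at 375 CPM with 27 of 48 wells at 10 CPM, and YFP1 at 150 CPM with 12 of 48. In YFP1, wells 41 and 42, at 12036 and 11867 CPM, are near copies of each other, had mitochondrial shares of 66.8% and 65.8%, and together held 91.4% of the library's *Nid1* counts. Without them YFP1 stood at 13.0 CPM, below the WT level of 25.1 CPM and above the 2.63 CPM of WT without well 18. Among wells that passed the filter YFP1 was at 8.84 CPM and YFP2 at 391 CPM, against 33.1 CPM in WT, and *Nid1* was present at 10 CPM in 5 of 28, 16 of 29 and 3 of 15 wells. Over both libraries, leaving out wells 41 and 42 and the wells with the most *Nid1* counts, 73 and 81, gave 54.4 CPM. The log2 ratio was then 1.11 against all WT wells, or 4.37 against WT without well 18. The median gene was at 1.17 with no wells left out, which is not a like measure. With the top well of each gene left out in both genotypes, *Nid1* was at 6.16 and the median gene at 1.84. In the wells gated on smooth muscle and mural markers the ratio was 3.33, but wells 41, 42 and 81 are among them. Wells 41 and 42 had 209 and 246 CPM of smooth muscle and 864 and 904 CPM of mural markers, and passed only because both lists were summed. The 3 wells held 82.1% of the *Nid1* counts of the gated Renin-null wells. Without them the gated ratio was 0.93, or 4.21 with WT well 18 left out as well. The median gene over all gated wells was at 0.52. Of the 39 Renin-null wells with *Nid1*, 28 had *Lamc1*, the gene of its laminin partner chain, below 10 CPM (71.8%), as did 77 of all 96 (80.2%).

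*Nid2*, which encodes nidogen 2 (chr14:19751265-19811787, plus strand), was listed at 0 in every well of both genotypes. At the limit of 3 counts used here for a count of 0, this allows up to 0.0152 CPM in WT against 0.00752 CPM in Renin-null, and the upper ends of the exact Poisson intervals were 0.0186 and 0.00925 CPM. All nidogen counts were therefore *Nid1*.

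Counted over all wells, both proteoglycans reached 10 CPM in a larger share of Renin-null than of WT wells. Among wells that passed the filter, the Renin-null share was not higher for *Agrn*, and for *Hspg2* the shares lay closer together. *Hspg2* (perlecan, chr4:137468769-137570630, plus strand) was at 15.1 CPM in WT (14.6 to 15.7) and 37.8 CPM in Renin-null (37.2 to 38.4), a log2 ratio of 1.32 (1.26 to 1.38), close to the 1.17 of the median gene. WT wells ran from 0 to 176 CPM and Renin-null wells from 0 to 499 CPM, with medians of 0 and 0.149. It reached 10 CPM in 4 of 51 (7.84%) and 23 of 96 wells (24.0%), but in 4 of 15 and 18 of 57 of those that passed the filter. Against all WT wells the excess came from YFP2, at 61.8 CPM, whereas YFP1 stood at 8.99 CPM, below WT. That order rests on WT well 33, which held the most WT counts. Without well 33 WT stood at 7.60 CPM, below YFP1. Of the Renin-null *Hspg2* counts, 58.4% lay in wells with at least 1000 CPM of fibroblast markers, which hold 25.1% of all Renin-null counts, and 80.4% lay in wells with that level of renin cell markers, which hold 49.4%. *Lamb2* had 50.3% of its counts in the wells with fibroblast markers and 41.2% in those with renin cell markers. Well 57, with 3790 CPM of fibroblast markers, held 26.5% of its counts. *Agrn* had 41.1% and *Lama5* 33.4% in the wells with fibroblast markers, whereas *Lamc1* had 2.64% and *Lama4* 0.00864%. Well 89, the top one for *Hspg2*, had 7890 CPM of them beside 19218 CPM of mural markers.

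*Agrn* (chr4:156165290-156197488, minus strand) was at 148 CPM in WT (145.8 to 149) and 203 CPM in Renin-null (201 to 204), a log2 ratio of 0.46 (0.44 to 0.48). WT wells ran from 0 to 715 CPM with a median of 1.31, and Renin-null wells from 0 to 3768 CPM with a median of 9.39. It reached 10 CPM in 11 of 51 WT wells (21.6%, 11.3% to 35.3%) and 47 of 96 Renin-null wells (49.0%, 38.6% to 59.4%). Among wells that passed the filter, however, the shares were 9 of 15 and 33 of 57, and the WT median of 157 CPM was above the Renin-null median of 41.0 CPM. The top well held 22.0% of the counts in WT and 23.8% in Renin-null. YFP1 stood at 108.2 CPM and YFP2 at 282 CPM, on either side of WT.

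Per length, the order of the members in WT was *Lamb2* (84.5 CPM per kb), *Lama5* (20.2), *Agrn* (15.9), *Lama2* (13.1), *Lamc1* (9.18), *Lama4* (6.11), *Nid1* (3.62), *Hspg2* (1.06) and *Lamb1* (0.923). In Renin-null *Nid1* stood second at 39.3 CPM per kb, after *Lamb2* at 47.1, and *Lama2* last of the 9 at 0.143. Single wells of each of the 9 genes ran from 0 upward in both genotypes, so neighbours in either order overlapped over wells.

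The members differed in how far a level rested on 1 well. Over 50% of the counts lay in 1 well for 7 of 9 genes in WT and 2 of 9 in Renin-null, where among all genes of at least 100 counts the shares were 71.1% and 47.5%. The median share of the top well was 57.02% in WT and 26.5% in Renin-null for the members, against 69.1% and 48.2% for those genes, with 51 WT and 96 Renin-null wells to spread over. Among genes of at least 10 CPM in the genotype, nearer to most members in abundance, the medians were 60.8% and 41.5%. For *Lamb2* and *Agrn* alike, 50% of the counts lay in 3 WT wells and in 4 Renin-null wells. *Lama2*, *Lama4*, *Lamb1* and *Nid1* each had 89.97% or more in 1 WT well, and these were 4 different wells (5, 3, 28 and 18).

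**Figure D3:**
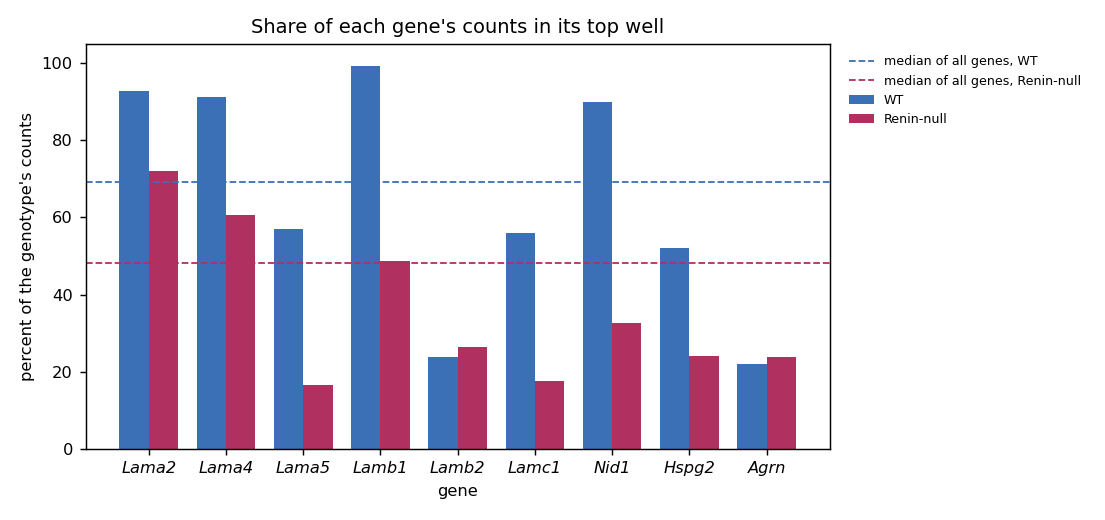
Percent of a gene's counts in the well with most of them, for WT (51 wells) and Renin-null (96 wells). Dashed lines are the medians over all genes of at least 100 counts, 69.1% in WT and 48.2% in Renin-null. *Lamb2* and *Agrn* lie below both lines in both genotypes.

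The number of members present in a well was low. The median was 1 of 10 genes at 10 CPM in WT wells and 2 in Renin-null wells, and 3 and 2 in wells that passed the filter. The highest was 7, in WT well 10 and Renin-null well 48. Over the 57 Renin-null wells that passed the filter, the strongest rank correlation between members was *Lamb2* with *Nid1* (Spearman's rho 0.39), as a description of wells that share libraries. The genes most like the mean rank of the members over those wells were *Sema5a* (0.62), *Paf1* (0.59), *Yap1* (0.59), *Tns2* (0.59) and *Sntb1* (0.58), while rho was -0.08 for the depth of a well and 0.26 for its number of genes.

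The other basement membrane genes showed no single direction either. Of 21 network and linker genes 10 were at least 2-fold higher, 7 at least 2-fold lower and 4 between, with a median log2 ratio of 0.85, where over all genes 52.4% were higher, 18.5% lower and the median was 1.17. The major collagen IV chains *Col4a1* and *Col4a2* were at 172 and 176 CPM in WT and 465 and 489 CPM in Renin-null, log2 ratios of 1.44 and 1.47. Among those of at least 10 CPM in either genotype, the highest ratios were those of *Col4a3*, a collagen IV chain of glomerular and tubular basement membranes, with 0.202 CPM in WT, 841 CPM in Renin-null and 53.9% of the latter in well 59, which had 18493 CPM of podocyte and 36.5 CPM of smooth muscle markers, and *Frem1*, a matrix protein of the Fraser complex, with 28.7 CPM in Renin-null of which 99.5% lay in well 23. The lowest ratios at that level were those of *Frem2* (-3.27) and *Col4a5* (-3.03), the latter with 93.7% of its WT counts in well 5, the *Lama2* well. Without the top wells *Col4a5* was at 5.15 CPM in WT against 5.82 CPM in Renin-null. Of the laminin chains outside the set, *Lama3* and *Lamc3* were at least 2-fold lower. Without the top wells *Lama3* was no longer 2-fold apart, at 0.252 CPM in WT against 0.139 CPM in Renin-null. *Lamc3* was then at 21.0 CPM against 0.209 CPM. Of WT wells 3 and 5, which together held 88.9% of its WT counts, only well 3 was left out there.

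Among 15 receptors 7 were at least 2-fold higher, 4 at least 2-fold lower and 4 between, with a median of 0.72 beside the same 52.4%, 18.5% and 1.17 over all genes. *Itgb1*, the integrin beta chain shared by the main laminin receptors, stood at 202 CPM in WT against 469 CPM in Renin-null. Its log2 ratio of 1.21 was close to the 1.17 of the median gene. Its laminin-binding partners differed. *Itga6* had a ratio of 2.82, *Itga7* of 0.72 and *Itga3* of -2.69, with 99.3% of the WT *Itga3* counts in 1 well. Without the top well of each genotype *Itga3* was at 0.183 CPM in WT against 1.55 CPM in Renin-null, the other direction. *Itga1*, the alpha chain of a collagen receptor that also binds laminin, was at -0.91, with 95.3% of the WT counts in well 18, the *Nid1* well, and likewise turned without the top wells (6.09 CPM in WT, 45.5 CPM in Renin-null). Dystroglycan (*Dag1*) was at -0.39 and *Bcam*, which binds the laminin alpha 5 chain, at -0.01. Of the other receptors of at least 10 CPM in either genotype, *Itgb4* had the highest ratio (6.47), at 0.177 CPM in WT, and *Ddr2*, a collagen receptor, the lowest (-2.63).

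**Figure D4:**
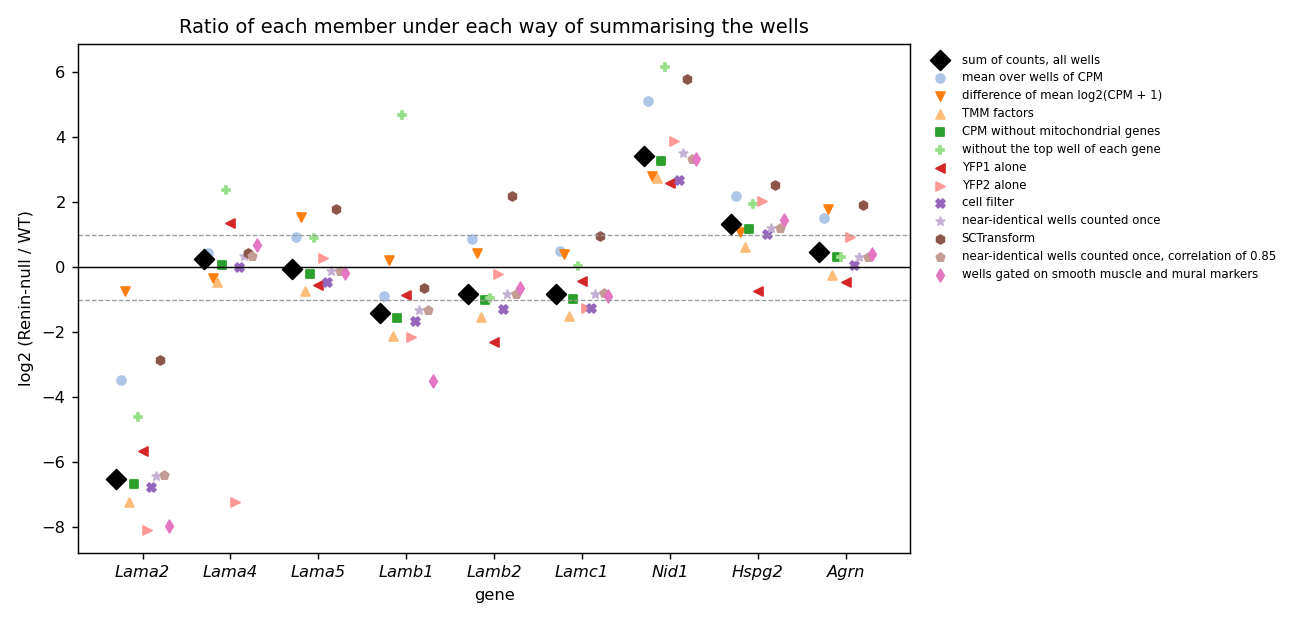
Log2 ratio of Renin-null over WT for each member under each way of summarising the wells. Black diamonds are sums over all wells, and dashed lines are 2-fold. *Nid1* lay above the upper line and *Lama2* below 0 in every setting drawn, whereas *Lama4* spanned -7.26 to 2.38 and *Lamb1* -3.51 to 4.68.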

How the data were processed

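YFP-positive cells of the kidney cortex were profiled one per well (Fluidigm C1, SMART-Seq v4, Nextera XT). The authors trimmed reads with Trimmomatic 0.39 after FastQC 0.11.5, quantified them with Salmon 0.11.2 on GRCm38/ENSEMBL and summed transcripts with tximport (lengthScaledTPM). Versions are those in the submitters' processing notes. The deposited values are expected counts (estimated counts) per gene and well, unnormalized for depth, for 35438 genes.

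Expected counts were rounded, summed over the wells of a genotype and scaled to counts per 1000000 (CPM). Where a genotype held 0 counts of a gene, 3 were used in its place, and genes with 3 or fewer in both had no ratio. Levels have exact Poisson intervals, ratios the exact conditional interval and shares of wells or counts the exact Clopper-Pearson interval. PCR copies are not independent molecules, so those of levels, ratios and shares of counts cover counting error only. Those of shares of wells take the wells as independent, although wells share mice and captures. Lengths and coordinates are those of GENCODE M21 (GRCm38), matched by symbol for 34288 genes, and the exonic length used for division is not the transcript length of the authors' scaling. No doublet caller was run; the wells had been inspected under a microscope for single viable cells. For 2 Renin-null wells the label fields disagree on the index, and both were left out of the index comparison.

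Alternatives were mean CPM over wells, mean log2(CPM + 1) over wells (as a difference), TMM factors (edgeR 4.0.16), mitochondrial genes left out, the top well of each gene left out, each library alone, the cell filter, near-identical wells counted once (correlation of at least 0.95), SCTransform (Seurat 5.3.0, sctransform 0.4.2, R 4.3.3), coding length or no length, and other limits for a well. Added after seeing the data were a correlation of 0.85, wells with at least 1000 CPM of smooth muscle and mural markers and under 1000 CPM of each endothelial, tubule, collecting duct, podocyte and leukocyte list (fibroblast, mesangial and renin cell lists not limited), trimer wells with near-identical pairs counted once, and the *Nid1* wells left out, with and without that marker gate. Other software was Python 3.11.15 (numpy 2.4.6, pandas 2.3.3, scipy 1.17.1, matplotlib 3.10.9).

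The genes and lists were chosen with earlier results of these data known. Named were all members, the other laminin chains, *Col4a1*, *Col4a2*, the laminin receptors, the 3 largest and 3 smallest ratios of the rest of the list among genes of at least 10 CPM, the label checks, the most abundant gene of each marker list and the 5 genes most like the members' mean rank among genes counted in at least 50% of the filtered Renin-null wells. Not every gene so chosen is given, and the gamma chains were compared as *Lamc1* and *Lamc3*.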

Additional observations from a re-analysis of the deposited data

How the results depend on the processing

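*Nid1* was at least 2-fold higher in Renin-null and above the all-gene median under all 12 alternatives (log2 2.58 to 6.16). Without wells 41, 42, 73 and 81 it stood at 1.11, or 4.37 against WT without well 18. The median gene over all wells was at 1.17, with no wells left out for it. In YFP1 it was below WT once wells 41 and 42 were left out (-0.95, or 2.31 against WT without well 18, chosen after seeing the data). In wells gated on smooth muscle and mural markers it was 0.93 without wells 41, 42 and 81 (4.21 without WT well 18). The median gene over all gated wells was at 0.52. Of the 9 members 7 were below the all-gene median, and over the alternatives 2, with mean log2(CPM + 1), to 8, with the cell filter. *Lama2* was lower in Renin-null under all 12 (-8.09 to -0.75). *Hspg2* turned to -0.75 with YFP1 alone, at 8.99 CPM against 15.1 CPM in WT, or 7.60 CPM in WT without well 33. *Lamb1* turned to 4.68 without the top well of each gene and to 0.21 with mean log2(CPM + 1). *Lama4*, *Lama5*, *Lamb2*, *Lamc1* and *Agrn*, none 2-fold apart in the sums, each had values on both sides of 0. The all-gene median moved with the setting, from 0.06 with mean log2(CPM + 1) to 1.85 with SCTransform, and was 1.29 over genes of at least 100 counts and 0.86 over genes of at least 10 CPM. The causes were not tested. Depth limits the low wells most: 2 WT and 12 Renin-null wells held under 50000 counts, and no test or paired fit bears on any value. No paired analysis was possible because the result comes from no test and each genotype is 1 sample.

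The median log2 ratio of the members, -0.05, became 0.88 with mean CPM, 0.42 with mean log2(CPM + 1), -0.75 with TMM factors, -0.21 without mitochondrial genes, 0.89 without the top wells, -0.54 with YFP1 alone, -0.23 with YFP2 alone, -0.45 with the cell filter, -0.13 with near-identical wells counted once, -0.12 with a correlation of 0.85, -0.19 in wells gated on smooth muscle and mural markers and 1.80 with SCTransform. The count of members at least 2-fold higher, 2, became 3 with mean CPM, 4 with mean log2(CPM + 1) and without the top wells, 1 with TMM factors and 5 with SCTransform. The count at least 2-fold lower, 2, became 1 with mean CPM, without the top wells and with SCTransform, 0 with mean log2(CPM + 1), 3 without mitochondrial genes and 4 with TMM factors, YFP2 alone and the cell filter.

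The *Lama4* share of the alpha chains in WT, 13.1%, became 10.7% with mean CPM, 5.35% without the top wells, 20.9% with coding length and 12.4% with no length. In Renin-null, 25.2% became 12.1%, 14.9%, 42.0% and 26.3% in the same order, 27.4% with the cell filter, 47.0% in YFP1, 0.164% in YFP2, 27.3% with near-identical wells counted once at either correlation and 35.5% in wells gated on smooth muscle and mural markers. The *Lamb2* share of the beta chains in WT, 95.6%, became 96.8% with mean CPM, 99.7% without the top wells, 92.9% with coding length and 94.7% with no length. In Renin-null, 94.5% became 96.6%, 95.2%, 91.1% and 93.7% in the same order, 93.9% with the cell filter, 82.3% in YFP1, 97.3% in YFP2, 94.2% with near-identical wells counted once at either correlation and 98.4% in wells gated on smooth muscle and mural markers.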

Other observations

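The minor collagen IV chains, which share the network that nidogen binds, differed by pair in the sums. *Col4a3* and *Col4a4*, partners in the glomerular network, were at 0.202 and 5.82 CPM in WT and 841 and 86.4 CPM in Renin-null. *Col4a5* and *Col4a6* were at 77.3 and 100 CPM in WT and 9.48 and 20.6 CPM in Renin-null. Single wells carried much of each. Renin-null well 59 held 53.9% of the *Col4a3* and 49.3% of the *Col4a4* counts, with 18493 CPM of podocyte and 36.5 CPM of smooth muscle markers, and WT well 5 held 93.7% of the *Col4a5* and 97.7% of the *Col4a6* counts. Without the top well of each genotype *Col4a5* was at 5.15 CPM in WT against 5.82 CPM in Renin-null and *Col4a6* at 2.50 against 4.40 CPM, so neither was lower in Renin-null. *Col4a3* reached 10 CPM in 30 of 96 Renin-null wells and in 0 of 51 WT wells, counted over all wells. Over all genes, 52.4% were at least 2-fold higher in Renin-null. How many genes split the wells in this way was not counted. *Col4a4* and *Col4a6* were named after their values were seen, outside the rules for naming genes given above. Renin-null wells 75 and 87 had 2962 and 2615 CPM of podocyte markers, and the part of podocyte RNA in these values was not tested.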
